A study of Mus musculus with 21 samples.

Results

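Ribosome footprints and translation efficiency were followed across the transcriptome of mouse embryonic stem cells after removal of RPLP1, a protein of the stalk of the large ribosomal subunit. The genes described are all genes of the authors' table for the RPLP1 line that carry a usable symbol. They number 12254, of 13232 genes in any of the study's 3 tables, leaving out 18 date-converted symbols and 2 entries that share a symbol.

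The cells were E14-mESC, an established embryonic stem cell line, with the genotype label RPLP1-AID/RPS26-Tir1 Ribo-Tweezer. RPLP1 carries an auxin-inducible degron (AID), and the label names the plant auxin receptor Tir1, which directs degron-tagged proteins to the proteasome, together with the small-subunit protein RPS26. Cells received auxin (IAA) or the solvent DMSO for 8 h, and both arms carry the same tagged genotype. There were 3 mRNA samples with IAA and 3 with DMSO, from polyadenylated RNA, and 1 footprint library that joined all replicates of both treatments. Lines with the degron on RPLP0, the protein that anchors the stalk, or on RACK1, a scaffold on the small subunit, had the same design with their own controls and are used for comparison. No line without a degron was among these samples, so effects of IAA itself and of RPLP1 removal cannot be told apart. Whether the RPLP1 line is 1 clone, and whether replicates are separate cultures, was not stated, and p-values then measure only the spread between these samples, which may be technical.

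The stalk is a flexible arm of the large subunit, built of RPLP0 and pairs of RPLP1 and RPLP2. It recruits the translation factors that hydrolyse GTP during elongation. Ribosome profiling sequences the mRNA fragments that ribosomes protect, so the footprints of a gene reflect both the amount of its mRNA and the number of ribosomes on each copy. Translation efficiency is the footprint signal relative to the mRNA.

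The authors' deposited table holds, per gene, a log2 change and a false discovery rate (FDR) for footprints and for mRNA, and no value for any sample. Read depth is therefore unknown, and a shift common to all genes would not show. A positive change was read as higher after IAA. It is not stated how footprint FDRs were obtained from a library that joins both treatments, nor which spread they reflect. Of the markers listed, the table held all 10 of embryonic stem cells, 6 of 10 of feeder fibroblasts (without Col3a1, Dcn, Lum and Postn) and 4 of 8 of extraembryonic endoderm (without Sox17, Foxa2, Afp and Ttr). The fibroblast markers held 1 lower call and a median footprint change of -0.24, and the endoderm markers no call and a median of 0.20. The table gives no levels, so how much of these cell types was present cannot be read from it. In bulk cultures, fewer cells of a type and less RNA per cell cannot be told apart.

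Footprints changed on 1028 genes at an FDR below 0.05 (8.39% of all genes), of which 433 were higher (3.53%) and 595 lower (4.86%) with IAA. The changes were small. The median change was 0.22 on the log2 scale among the higher genes and -0.31 among the lower ones, and 45 higher and 69 lower genes exceeded 0.5 in size. In mRNA 1741 genes changed (14.2%), 690 higher (5.63%) and 1051 lower (8.58%).

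Footprints and mRNA moved together. Of the genes called, 558 were called in both assays, which is 54.3% of the footprint calls and 32.1% of the mRNA calls. Of these, 384 fell and 172 rose in both, and 2 went opposite ways. The exceptions were mt-Cytb, the mitochondrially encoded cytochrome b, and Rab4b, a small GTPase of recycling endosomes. In the authors' deposited table, mt-Cytb footprints changed by 0.21 (FDR 0.0211) and its mRNA by -0.21 (FDR 0.00155). Rab4b footprints changed by 0.65 (FDR 0.0366) and its mRNA by -0.29 (FDR 0.0438) in the authors' deposited table. A further 470 genes were called in footprints alone, of which 423 had an mRNA change of the same sign. Likewise 1073 of the 1183 genes called in mRNA alone had footprints of the same sign.

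**Figure D1:**
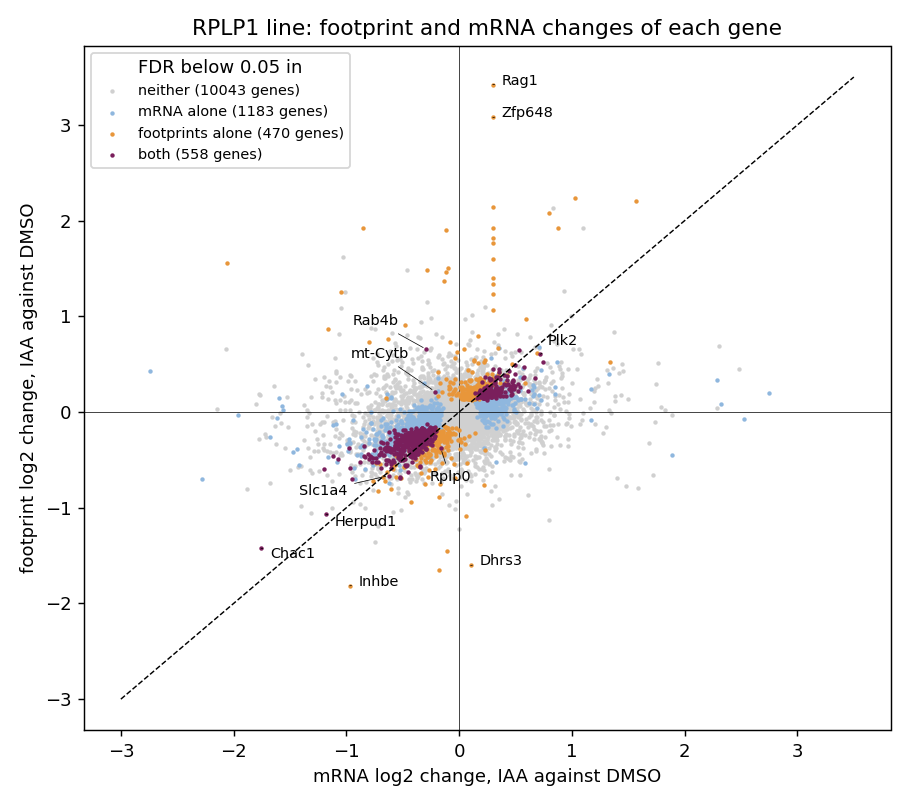
Each point is a gene of the RPLP1 line, with its mRNA log2 change (IAA against DMSO) on the x axis and its footprint log2 change on the y axis, coloured by the assays in which the FDR was below 0.05. The dashed line marks equal change, and the 558 genes called in both have the same sign on both axes except mt-Cytb and Rab4b.

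Footprint changes were smaller than mRNA changes. The SD over genes was 0.227 for footprints and 0.320 for mRNA. Both SDs include measurement error, and the median standard error implied by the FDRs was 0.0875 for footprints and 0.115 for mRNA. The part of error in this difference was not tested. Among the 558 genes called in both assays the median ratio of the footprint to the mRNA change was 0.743, and the footprint change was the smaller in 477 of them (85.5%). In the RPLP0 line, where footprints were called on 302 genes (2.45%) and mRNA on 9.92% of genes, the ratio was 0.981 and footprints were the smaller in 110 of 207 genes (53.1%). Both ratios rest on genes chosen for passing both FDRs, and the share of footprints called differed between the lines. Whether the lines differ in the ratio was not tested.

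Ordered by mRNA change, footprints followed it over the middle of the range and less at the ends. The 1206 genes with an mRNA change between -0.5 and -0.3 had a median footprint change of -0.20, and the 679 genes between -1 and -0.5 one of -0.26. The 122 genes below -1 had a median of only -0.13, and their median implied standard error was 0.633 for mRNA. On the other side, median footprint changes were 0.11 for the 603 genes with mRNA between 0.3 and 0.5 and 0.10 for the 254 genes between 0.5 and 1. In the RPLP0 line the medians of the same bins were 0.20 and 0.36. Errors in the mRNA values place genes in the outer bins and enter efficiency with the opposite sign, and their part in these medians was not tested.

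**Figure D2:**
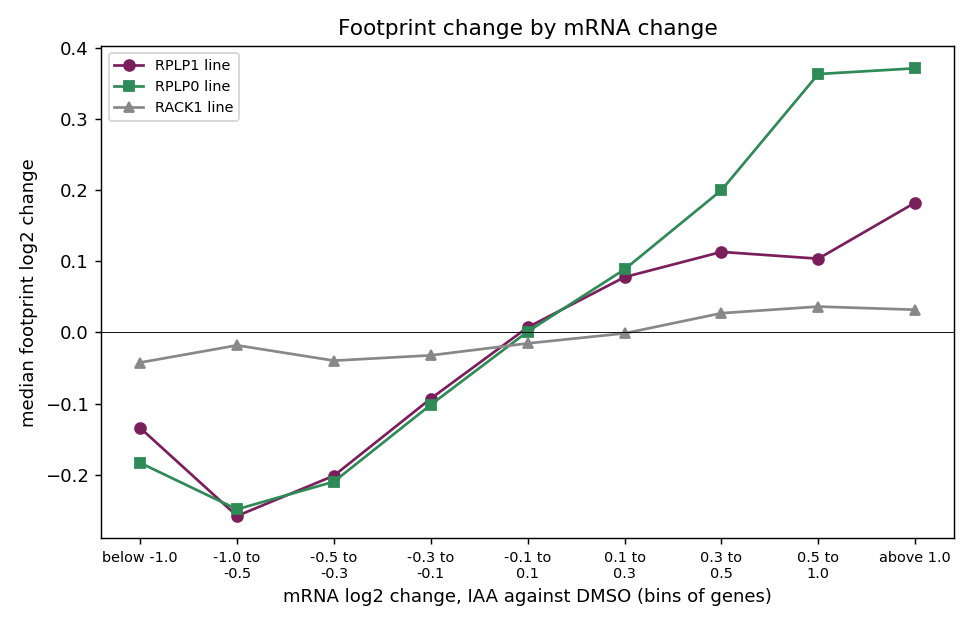
Genes of each line were binned by mRNA log2 change (x axis), and the points give the median footprint log2 change of each bin (y axis). In the RPLP1 line the medians run between -0.26 and 0.18, and for mRNA increases above 0.3 they lie below those of the RPLP0 line.

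Across all 12254 genes Spearman's rho between footprint and mRNA change was 0.511. In the 5248 genes whose implied standard error was at or below the median in both assays it was 0.668, with a slope of 0.462 of footprint on mRNA change. These are descriptions across genes that share the same libraries.

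Few genes passed the test of translation efficiency. The change was taken as footprint minus mRNA log2 change and set against the standard error (SE) that the authors' FDRs imply, in an approximate normal test adjusted over all genes. It passed for 4 genes (0.0326%), all higher, and for none lower (0%). Without adjustment, 485 higher and 419 lower genes had a p below 0.05, together 7.38% of all genes. The median implied SE was 0.0875 for a footprint change, 0.115 for an mRNA change and 0.148 for an efficiency change. The count depends on the assumption that errors of the 2 assays are independent: with an assumed correlation of 0.5 it was 263 higher and 209 lower. With SEs from a t quantile, which are smaller by construction, it was 678 higher and 535 lower.

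All 4 genes shared a fall in mRNA that footprints did not follow. Utf1, a chromatin-associated factor of pluripotent cells, had an efficiency change of 0.44 (SE 0.0915), with footprints at 0.01 (FDR 0.886) and mRNA at -0.43 (FDR 6.69e-05) in the authors' deposited table. Chchd10, a protein of the mitochondrial intermembrane space, had an efficiency change of 0.41 (SE 0.0935), with footprints at 0.05 (FDR 0.479) and mRNA at -0.36 (FDR 0.000949) in the authors' deposited table. Mif, a secreted cytokine, had one of 0.37 (SE 0.0791), with footprints at 0.04 (FDR 0.55) and mRNA at -0.33 (FDR 0.000135) in the authors' deposited table. For mt-Cytb it was 0.43 (SE 0.0816), and here footprints rose while mRNA fell. So in Utf1, Chchd10 and Mif the mRNA change alone passed the threshold, and in mt-Cytb both did.

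Ranked by the efficiency test, 64 of the first 100 genes were higher and 36 lower, with 69 called in mRNA and 15 in footprints. The genes named next were chosen after their values were seen, and none passed the adjusted test. Nupr1, a stress-induced chromatin protein on the list of ATF4 targets described below, had the smallest p among genes with a decrease. The efficiency change was -1.11 (SE 0.284), with footprints at -0.53 (FDR 0.0792) and mRNA at 0.58 (FDR 0.0281) in the authors' deposited table. Mdm4, a p53 inhibitor, had an efficiency change of -0.36 (SE 0.0951), with footprints at -0.22 (FDR 0.0234) and mRNA at 0.14 (FDR 0.144) in the authors' deposited table. Atp6v0c, the proteolipid of the vacuolar proton pump, stood at 0.42 (SE 0.105) and the histone variant gene H2afx at 0.38 (SE 0.0894).

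**Figure D3:**
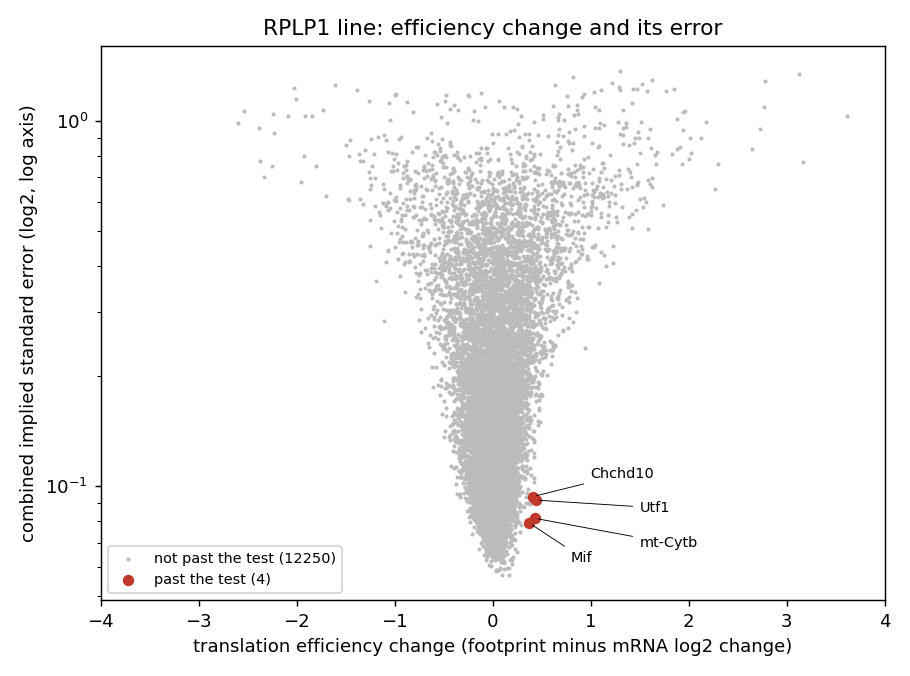
Each point is a gene of the RPLP1 line, with its translation efficiency change (footprint minus mRNA log2 change) on the x axis and the combined implied standard error on a log y axis. The 4 genes past the adjusted test sit at changes of 0.37 to 0.44 with errors under 0.1, while larger changes come with larger errors.

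The stalk genes were read first among the groups. A degron acts on the protein, so the footprints of its own gene do not check the removal. Rplp0 footprints fell by 0.38 (FDR 0.00024) and Rplp0 mRNA fell by 0.16 (FDR 0.0143), per the authors' deposited table, an efficiency change of -0.21 (SE 0.086). Rplp1 had a footprint change of 0.13 (FDR 0.536) and Rplp2 one of 0.14 (FDR 0.377) in the authors' deposited table. In mRNA of the authors' deposited table, Rplp1 stood at -0.14 (FDR 0.0605) and Rplp2 at -0.20 (FDR 0.00911). Their efficiency changes were 0.27 (SE 0.139) and 0.35 (SE 0.118). No stalk gene passed the adjusted efficiency test, and Rplp0 footprints were lower while those of its partners were not called. In the same table of the authors, Rack1 footprints stood at 0.06 (FDR 0.321).

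Ribosomal protein genes rose in footprints about as often as all genes (3.53%). Of 47 large-subunit ribosomal protein genes, 2 rose (4.26%) and none fell, with a median change of 0.06 against -0.01 over all genes. Of 30 small-subunit genes, 1 rose (3.33%) and none fell (median 0.07). In mRNA 10 large-subunit and 5 small-subunit genes rose, beside 5.63% of all genes, and 1 large-subunit gene fell. Rpl5, part of the 5S ribonucleoprotein that binds Mdm2, rose by 0.15 (FDR 0.0231) and Rpl23 by 0.13 (FDR 0.0411) in footprints of the authors' deposited table. Ribosomal protein genes have many processed pseudogenes, and how reads shared with them were counted was not stated. Their median efficiency changes were -0.01 and 0.02, beside 0.00 over all genes.

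Other mRNAs with a terminal oligopyrimidine tract, the sequence at the 5′ end that places an mRNA under mTOR control, held more calls. Footprints rose on 5 of 21 (23.8%, beside 3.53% of all genes) and fell on none, with a median of 0.07. The list's medians were 0.09 in mRNA and -0.02 in efficiency, and 8 of 21 efficiency changes were above 0. Pabpc1, the cytoplasmic poly(A)-binding protein, rose by 0.19 (FDR 0.0108) in footprints and stood at -0.06 (FDR 0.38) in mRNA of the authors' deposited table. Ybx1, an mRNA-packaging protein, rose by 0.13 (FDR 0.0355) in footprints against -0.07 (FDR 0.303) in mRNA of the authors' deposited table. Among the 284 genes whose RefSeq start is a C followed by 4 pyrimidines, 10 rose and 13 fell, and the median footprint change was -0.01.

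Of 51 initiation factors and their regulators 4 rose (7.84%, beside 3.53% of all genes) and none fell (median 0.08). They included Eif4g2, a relative of the eIF4G scaffold, at 0.24 (FDR 0.0168) and Eif5 at 0.21 (FDR 0.0234) in the authors' deposited table. Among 67 ribosome biogenesis factors 9 rose (13.4%) and none fell (median 0.07), led by Nop58, a core protein of box C/D small nucleolar particles, at 0.22 (FDR 0.00783) in the authors' deposited table. Of 28 factors that sense or rescue stalled ribosomes 2 rose (7.14%) and none fell. The 2 were Usp9x, a deubiquitinase, at 0.17 (FDR 0.0152) and Map3k20, the kinase ZAK that binds collided ribosomes, at 0.30 (FDR 0.0403) in the authors' deposited table. The efficiency test passed for no member of these groups.

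Many genes of the secretory pathway and cell surface fell. Among 193 solute carriers outside the mitochondrial family, 43 fell in footprints (22.3%, beside 4.86% of all genes) and none rose. Their median changes were -0.22 in footprints, -0.37 in mRNA and 0.12 in efficiency. The 4.86% is also the background for the other decreases in this pathway. Slc7a5 and Slc3a2, which together form the LAT1 amino acid exchanger, had footprint decreases of -0.36 (FDR 0.00339) and -0.29 (FDR 0.0032) per the authors' deposited table. Slc1a4, a neutral amino acid transporter, fell by 0.66 (FDR 0.00024) and the nucleoside transporter Slc28a1 fell by 0.45 (FDR 0.00286) in footprints of the authors' deposited table. No solute carrier passed the efficiency test. Among members with precise values in both assays the footprint median was -0.14.

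Of 164 TMEM proteins 17 fell (10.4%) and none rose, with medians of -0.16 in footprints and -0.21 in mRNA. Among members with precise values the footprint median was -0.10. Tmem63a, a mechanosensitive ion channel, fell by 0.63 (FDR 0.00502) in footprints of the authors' deposited table. Matrix and basement membrane genes had the highest share among the lists of 10 or more members, with 15 of 35 lower (42.9%), none higher, and medians of -0.25 in footprints, -0.37 in mRNA and 0.11 in efficiency. Lama5 and Lamc1, laminin chains, stood at -0.39 (FDR 0.00475) and -0.24 (FDR 0.00642), and Col18a1, a basement membrane collagen, at -0.28 (FDR 0.00642), all lower, in footprints of the authors' deposited table. For Col18a1 the authors' deposited table also gave an mRNA decrease of -0.61 (FDR 5.47e-06), and its efficiency change was 0.33 (SE 0.12), not past the test.

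Integrin chains, the matrix receptors, fell in 4 of 16 (median -0.19). Itga5, the fibronectin receptor chain, fell by 0.37 (FDR 0.00642) and Itga6, a laminin receptor chain, fell by 0.18 (FDR 0.0228) in footprints of the authors' deposited table. Lysosomal genes fell in 12 of 45 (26.7%, median -0.17), among them Gla, the alpha-galactosidase, at -0.31 (FDR 0.0169) and Gusb, the beta-glucuronidase, at -0.38 (FDR 0.0172) in the authors' deposited table. Among lysosomal members with precise values the median was -0.09. Of 53 genes of translocation into the endoplasmic reticulum and N-glycosylation 7 fell and 1 rose (median -0.10). Emc1, a subunit of the membrane protein insertase EMC, fell by 0.29 (FDR 0.0138) in footprints of the authors' deposited table, and Alg13, a subunit of a glycosyltransferase, rose by 0.39 (FDR 0.0122) there.

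Wnt pathway genes fell in 8 of 43 (18.6%, beside 4.86% of all genes) and rose in 1 (2.33%, beside 3.53%). Their median footprint change was -0.16, but -0.02 among members with precise values. Porcn, the acyltransferase that lipidates Wnt proteins, fell by 0.44 (FDR 0.00642) in footprints and fell by 0.81 (FDR 6.88e-05) in mRNA of the authors' deposited table. Notum, a secreted Wnt deacylase, fell by 0.56 (FDR 0.0035) in footprints of the authors' deposited table. Cholesterol synthesis genes fell in 9 of 28 (32.1%, beside 4.86% of all genes) and rose in none, with medians of -0.17 in footprints and -0.26 in mRNA. Srebf2, the transcription factor that drives the pathway, fell by 0.36 (FDR 0.0032), and Dhcr7, the last enzyme of a branch of the pathway, fell by 0.27 (FDR 0.00642), in footprints of the authors' deposited table.

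**Figure D4:**
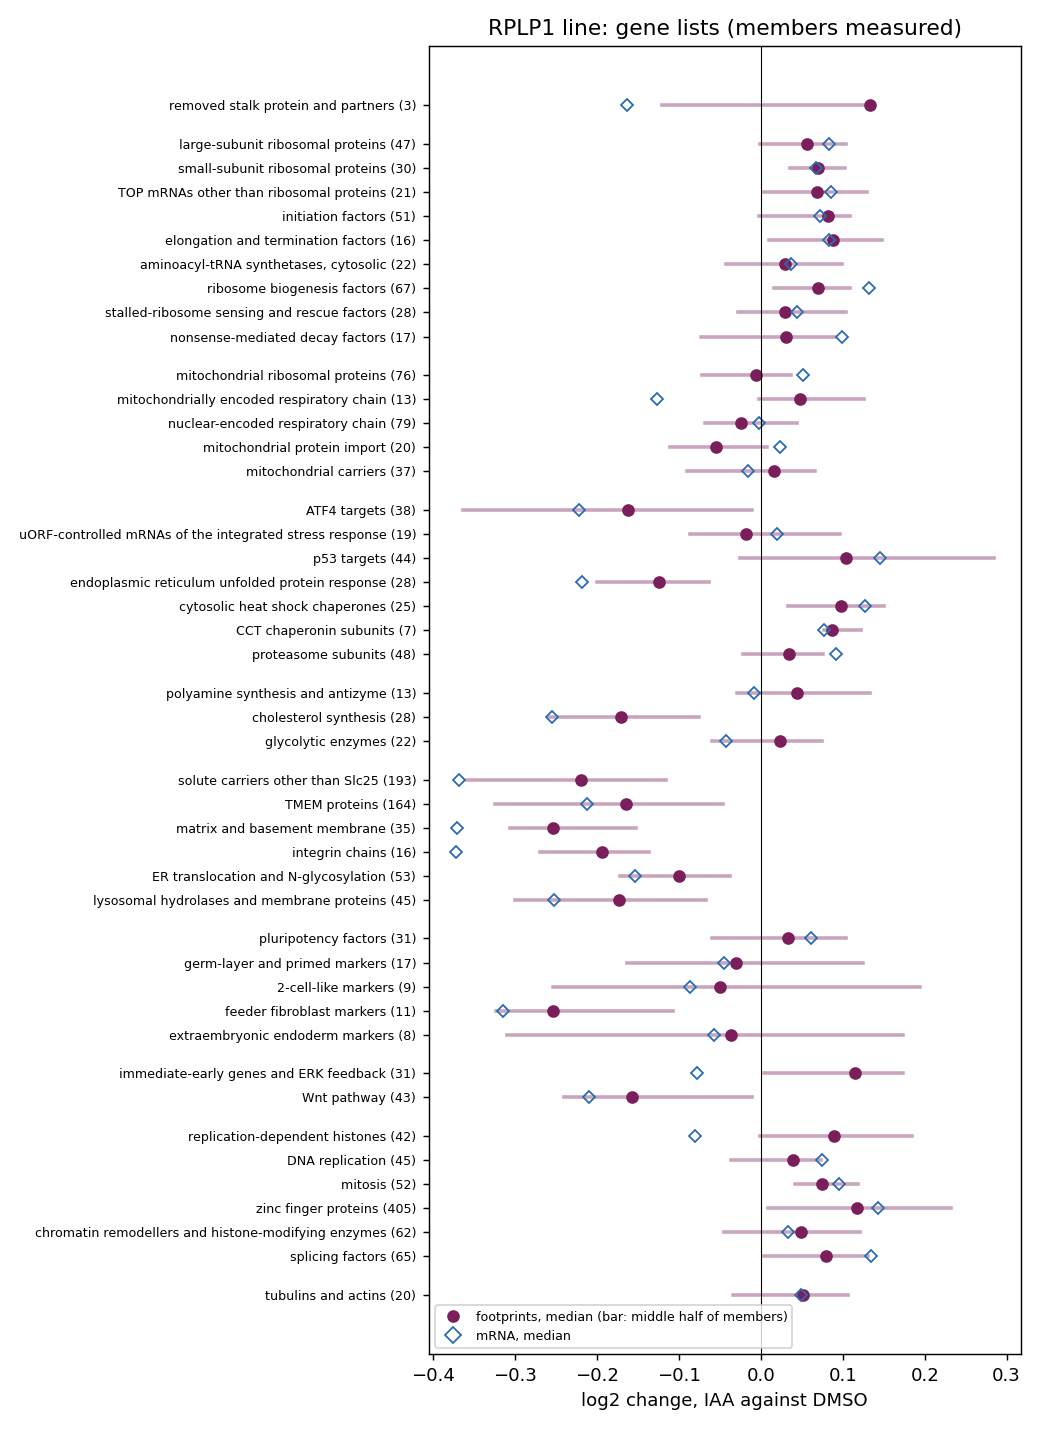
The footprint (filled circles) and mRNA (open diamonds) median log2 changes, IAA against DMSO, are given for each gene list in the RPLP1 line, with bars spanning the middle 50% of members in footprints and member counts in brackets. Solute carriers, matrix, integrin and lysosomal lists lie left of 0 with mRNA further left than footprints, while zinc finger, splicing and chaperone lists lie right of 0.

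Targets of ATF4, the transcription factor of the integrated stress response, fell more often than they rose. Footprints were lower on 13 of 38 (34.2%, beside 4.86% of all genes) and higher on 1 (2.63%, beside 3.53%), Asns. The list's medians were -0.16 in footprints, -0.22 in mRNA and 0.09 in efficiency. Among members with precise values the footprint median was -0.10. Of the 13, 5 are amino acid transporters that also stand in the solute carrier list. Chac1, a glutathione-degrading enzyme, fell by 1.42 (FDR 0.000392) in footprints and fell by 1.76 (FDR 3.14e-05) in mRNA of the authors' deposited table. Herpud1, a factor of degradation at the endoplasmic reticulum, fell by 1.07 (FDR 0.00024) in footprints and fell by 1.18 (FDR 0.000139) in mRNA of the authors' deposited table. Asns, the asparagine synthetase and a standard ATF4 target, rose by 0.16 (FDR 0.028) in footprints of the authors' deposited table. Chac1 and Asns, on the same list, thus went opposite ways. In the RPLP0 line the ATF4 list had a median footprint change of -0.08, with 5 of 38 lower and 2 higher. In the RACK1 line the median was -0.15, with 1 lower. Chac1, at -1.13 (FDR 0.0409), and Herpud1, at -0.44 (FDR 0.0471), were also lower in footprints of the RPLP0 line in the authors' deposited table. Decreases on this list were thus not particular to the RPLP1 line. In the approximate test of the footprint difference (normal quantile), 5 of 38 members were lower in the RPLP1 line than in the RPLP0 line. None was higher, beside 3.08% of all genes lower and 1.59% higher.

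The promoters of the strongest ATF4-list decreases are shown because both hold the letters of an amino acid response element, and that of Hspa5 is shown beside them for a target of the unfolded protein response. Each run is the 250 bases before the RefSeq start on the gene's own strand (GRCm38.p6), with the motif in capitals. Chac1 lies at chr2:119350992-119351241 (+), Herpud1 at chr8:94386179-94386428 (+) and Hspa5 at chr2:34771840-34772089 (+).
Chac1: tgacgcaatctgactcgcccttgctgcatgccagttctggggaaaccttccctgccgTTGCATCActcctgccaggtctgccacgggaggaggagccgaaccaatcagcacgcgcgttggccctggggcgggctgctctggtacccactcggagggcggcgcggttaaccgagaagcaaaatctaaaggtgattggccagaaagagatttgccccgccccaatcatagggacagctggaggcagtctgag
Herpud1: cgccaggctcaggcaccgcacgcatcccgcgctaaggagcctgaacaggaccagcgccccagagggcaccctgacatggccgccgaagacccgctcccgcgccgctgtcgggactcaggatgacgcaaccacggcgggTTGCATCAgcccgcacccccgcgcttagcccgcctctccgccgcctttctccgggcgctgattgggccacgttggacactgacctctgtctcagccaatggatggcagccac
Hspa5: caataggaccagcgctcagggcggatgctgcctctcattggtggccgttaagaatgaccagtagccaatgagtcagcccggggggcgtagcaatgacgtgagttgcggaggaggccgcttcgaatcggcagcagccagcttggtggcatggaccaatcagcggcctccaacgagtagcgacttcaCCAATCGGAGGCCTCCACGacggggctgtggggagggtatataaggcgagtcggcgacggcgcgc

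The letters TGATGCAA, searched on both strands from 250 bases before to 50 after the start, were in 8 of the 33 ATF4 targets with a promoter (24.2%) and in 69 of all 9644 promoters (0.715%). The match lies 193 bases before the start in Chac1 and 112 bases before it in Herpud1, on the minus strand in both. ATF4 targets with a match had a median footprint change of -0.60, and those without one of -0.10. Over all 69 genes with the match the median was -0.06, with 9 lower and 1 higher. The endoplasmic reticulum stress element, CCAAT and CCACG with 9 bases between them on either strand, was in 9 of 24 genes of the unfolded protein response list (37.5%) and in 18 of 9644 promoters (0.187%), with median footprint changes of -0.07 with a match and -0.13 without. The sterol element letters TCACCCCAC were in 1 of 20 cholesterol synthesis genes (5%), Hmgcs1, and in 68 of 9644 promoters (0.705%). The footprint change of Hmgcs1 was 0.03, and the median of the genes without a match was -0.18. These matches describe the letters and no binding was measured.

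The unfolded protein response list fell in 7 of 28 (25%, beside 4.86% of all genes) and rose in none. The list's medians were -0.12 in footprints, -0.22 in mRNA and 0.12 in efficiency. Its calls included Herpud1, Dnajc3, an inhibitor of the kinase PERK, at -0.28 (FDR 0.0151), and Atf6, a sensor of unfolded proteins, at -0.19 (FDR 0.0396) in footprints of the authors' deposited table. Its main chaperones, named after their values were seen, were lower in mRNA alone. Hspa5 (BiP) had footprints at -0.03 (FDR 0.629) and mRNA at -0.22 (FDR 0.00652), and Hsp90b1 footprints at -0.01 (FDR 0.941) and mRNA at -0.18 (FDR 0.0203), in the authors' deposited table. Their efficiency changes were 0.19 (SE 0.0722) and 0.17 (SE 0.07), not past the adjusted test. The list's median footprint change was -0.04 in the RPLP0 line, with 2 of 28 lower, and -0.16 in the RACK1 line, with no call.

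The next list holds 19 mRNAs controlled by upstream open reading frames, through which the integrated stress response acts on translation. In footprints 3 of them fell (15.8%, beside 4.86% of all genes) and 1 rose (5.26%, beside 3.53%). Their median efficiency change was -0.03, but 0.00943 among members with precise values, and none passed the test. Ibtk, an inhibitor of Bruton's tyrosine kinase, fell by 0.31 (FDR 0.00578) in footprints with mRNA at 0.02 (FDR 0.895) in the authors' deposited table, an efficiency change of -0.33 (SE 0.106). Atf4 itself, named after its values were seen, had footprints at -0.24 (FDR 0.0779) and mRNA at -0.19 (FDR 0.0517) in the authors' deposited table.

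Targets of p53 rose in 13 of 44 (29.5%, beside 3.53% of all genes) and fell in 1 (2.27%, beside 4.86%), Mdm4. Their medians were 0.10 in footprints, 0.15 in mRNA and -0.01 in efficiency. Plk2, a kinase, had the smallest footprint FDR of all genes, rising by 0.60 (FDR 2.85e-05), with mRNA higher by 0.72 (FDR 4.64e-05) in the authors' deposited table. Trp53inp1, a p53-induced stress protein, rose by 0.47 (FDR 0.000304) and Mdm2, the ubiquitin ligase of p53, by 0.32 (FDR 0.00285) in footprints of the authors' deposited table. In each of Plk2, Trp53inp1, Ccng1 and Mdm2 the footprint increase was smaller than that of mRNA, with efficiency changes from -0.16 to -0.11. None passed the adjusted test, and the SE was 0.168 for Plk2 and 0.132 for Trp53inp1. Over the whole p53 list 20 of 44 efficiency changes were above 0. Cytosolic heat shock chaperones rose in 6 of 25 (24%, beside 3.53% of all genes) and fell in none (median 0.10). Hsph1, a nucleotide exchange factor of Hsp70, rose by 0.29 (FDR 0.00148), and Dnaja1, an Hsp40 co-chaperone, by 0.19 (FDR 0.0182), in footprints of the authors' deposited table. The mRNA of Dnaja1 rose by 0.47 (FDR 1.74e-05) in the authors' deposited table, and its efficiency change was -0.28 (SE 0.0972).

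Zinc finger proteins and splicing factors held increases and no decreases in footprints. Of 405 zinc finger proteins 38 rose (9.38%, beside 3.53% of all genes) and none fell, with medians of 0.12 in footprints, 0.14 in mRNA and -0.02 in efficiency. Examples were Zfp131 at 0.27 (FDR 0.0108) and Zfp638 at 0.24 (FDR 0.0114) in the authors' deposited table. Zinc finger genes share sequence, so reads may be split among them. Splicing factors rose in 10 of 65 (15.4%) and fell in none, and more of them, 27, rose in mRNA. Srsf7, an SR protein, rose by 0.28 (FDR 0.00329) in footprints and by 0.42 (FDR 7.98e-05) in mRNA of the authors' deposited table. Chromatin regulators rose in 5 of 62 (8.06%), among them Eed, a subunit of the Polycomb complex PRC2, at 0.21 (FDR 0.0116) in the authors' deposited table. Mitosis genes rose in 3 of 52 (5.77%), and of 45 DNA replication genes 1 fell (2.22%), the thymidine kinase Tk1, beside 3.53% of all genes higher and 4.86% lower.

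Mitochondrially encoded genes had the highest median efficiency change of the lists with 10 or more members. Over 13 genes it was 0.22, with 11 above 0, and the median changes were 0.05 in footprints and -0.13 in mRNA. At an unadjusted p below 0.05 efficiency was higher in 8 and lower in 1 of them. Over all 12254 genes, 485 were higher and 419 lower at that threshold. Of the 13, mt-Cytb alone passed the adjusted test. Footprints rose on mt-Nd4l, a complex I subunit, by 0.27 (FDR 0.0117) and on mt-Atp8, an ATP synthase subunit, by 0.31 (FDR 0.0491), per the authors' deposited table. The genes mt-Nd4l and mt-Nd4, and mt-Atp8 and mt-Atp6, overlap, so their reads cannot be fully told apart. The exceptions, named after their values were seen, were mt-Nd3 at -0.41 (SE 0.124) and mt-Nd6 at -0.12 (SE 0.112) in efficiency. These mRNAs are read by mitochondrial ribosomes, which do not carry RPLP1. Their median efficiency change was 0.24 in the RPLP0 line and 0.46 in the RACK1 line, so a positive median was not particular to the RPLP1 line. The genes encoding mitochondrial ribosomal proteins, translated in the cytosol, had 1 of 76 lower and none higher in footprints, and a median efficiency change of -0.04. Replication-dependent histone mRNAs mostly lack a poly(A) tail and were set against polyadenylated RNA here. Their median efficiency change was 0.19, with an SE up to 1.15 (Hist1h4c), and 2 of 42 rose in footprints (4.76%, beside 3.53% of all genes). The histone median was 0.08 in the RPLP0 line and 0.49 in the RACK1 line.

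Pluripotency factors held mixed calls in footprints. Of 31, 4 were higher (12.9%) and 1 lower (3.23%), beside 3.53% and 4.86% of all genes. Lin28a, an RNA-binding protein, fell by 0.19 (FDR 0.0285) in footprints with mRNA at 0.00 (FDR 0.97) in the authors' deposited table. Dppa2, a chromatin factor of pluripotent cells, rose by 0.15 (FDR 0.0378) and Fbxo15, an F-box protein, by 0.18 (FDR 0.0379) in footprints of the authors' deposited table. Of 17 germ-layer genes 1 fell, the Nodal inhibitor Lefty1, by 0.47 (FDR 0.00642) in footprints of the authors' deposited table. Of 17 feeder fibroblast genes 11 were in the table, with 2 lower, Thy1 and the matrix gene Col5a1, none higher, and a median footprint change of -0.25. The table gives no levels for them, and their part in the matrix decrease was not tested.

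The largest footprint increases included genes best known from other tissues. Rag1, the V(D)J recombinase of lymphocytes, had the largest increase, 3.42 (FDR 0.00329), in the authors' deposited table. Zfp648, a zinc finger gene, followed at 3.08 (FDR 0.00185) and Muc16, a mucin, at 2.24 (FDR 0.00923) in the authors' deposited table. Rag1, Zfp648, Slc25a54 and Gys2 are among 15 genes that share 1 identical mRNA change, 0.30 (FDR 0.893), of which 11 were footprint calls, all higher. The efficiency change of Rag1 was 3.12 (SE 1.35), and none of these genes passed the efficiency test. The implied SE of the mRNA change was 1.12 for Rag1, beside a median of 0.115 over all genes. Without levels it cannot be read whether these genes were near the limit of detection. The largest decreases were those of Inhbe, an inhibin beta chain, at -1.82 (FDR 0.012), Rnf225 at -1.65 (FDR 0.0359) and Dhrs3, a retinal reductase, at -1.60 (FDR 0.0114) in the authors' deposited table.

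The footprint response was set against that of the RPLP0 line, the other stalk protein removed. Over 11951 genes in both tables Spearman's rho of the footprint changes was 0.0206, a description across genes. Of the 1013 RPLP1 calls with a value in the RPLP0 line, 60 were called there (5.92% of the RPLP1 calls and 20.2% of the 297 RPLP0 calls), 57 of them in the same direction, 30 higher and 27 lower. The RPLP0 table held 175 higher (1.42%) and 127 lower (1.03%) footprint calls. In the approximate test of the difference, 190 genes were higher (1.59%) and 368 lower (3.08%) in the RPLP1 line than in the RPLP0 line. With smaller SEs from a t quantile 1403 genes were higher and 1585 lower; the list counts below hold for the normal quantile only. Of the 368 lower genes 358 had opposite signs in the lines, and 160 were footprint calls in the RPLP1 line. A test of the difference favours genes with opposite signs, so the 358 do not show opposing responses. Among genes called in both lines 57 of 60 had the same sign.

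The lower genes included the secretory and surface groups. Among solute carriers 27 of 184 were lower in the RPLP1 line than in the RPLP0 line and none higher, with median footprint changes of -0.22 in the RPLP1 line and 0.08 in the RPLP0 line. The same count was 15 of 149 for TMEM proteins, 12 of 53 for translocation and glycosylation genes and 7 of 34 for matrix genes. Slc7a5 footprints changed by -0.36 in the RPLP1 line and by 0.14 (FDR 0.438) in the RPLP0 line of the authors' deposited tables, a difference of -0.50 (SE 0.131). Emc1 differed by -0.51 (SE 0.12), with 0.22 (FDR 0.131) in the RPLP0 line of the authors' deposited table. Rplp0 itself differed by -0.74 (SE 0.145), with 0.36 (FDR 0.0817) in the RPLP0 line of the authors' deposited table.

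Targets of p53 were lower in the RPLP1 line than in the RPLP0 line in 8 of 44 and higher in none. Their median footprint change was 0.10 in the RPLP1 line and 0.28 in the RPLP0 line, where 20 of 45 rose and 2 fell. Mdm2 footprints changed by 0.32 in the RPLP1 line and by 0.79 (FDR 8.43e-05) in the RPLP0 line of the authors' deposited tables, a difference that did not pass (adjusted p = 0.056, approximate test). Heat shock chaperones ran the other way, with 4 of 24 higher in the RPLP1 line than in the RPLP0 line and none lower. Hsph1 differed by 0.45 (SE 0.0984), with -0.17 (FDR 0.203) in the RPLP0 line of the authors' deposited table. Cholesterol synthesis genes had similar medians, -0.17 in the RPLP1 line and -0.16 in the RPLP0 line, with 2 higher and 1 lower of 28 in the test of the difference.

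**Figure D5:**
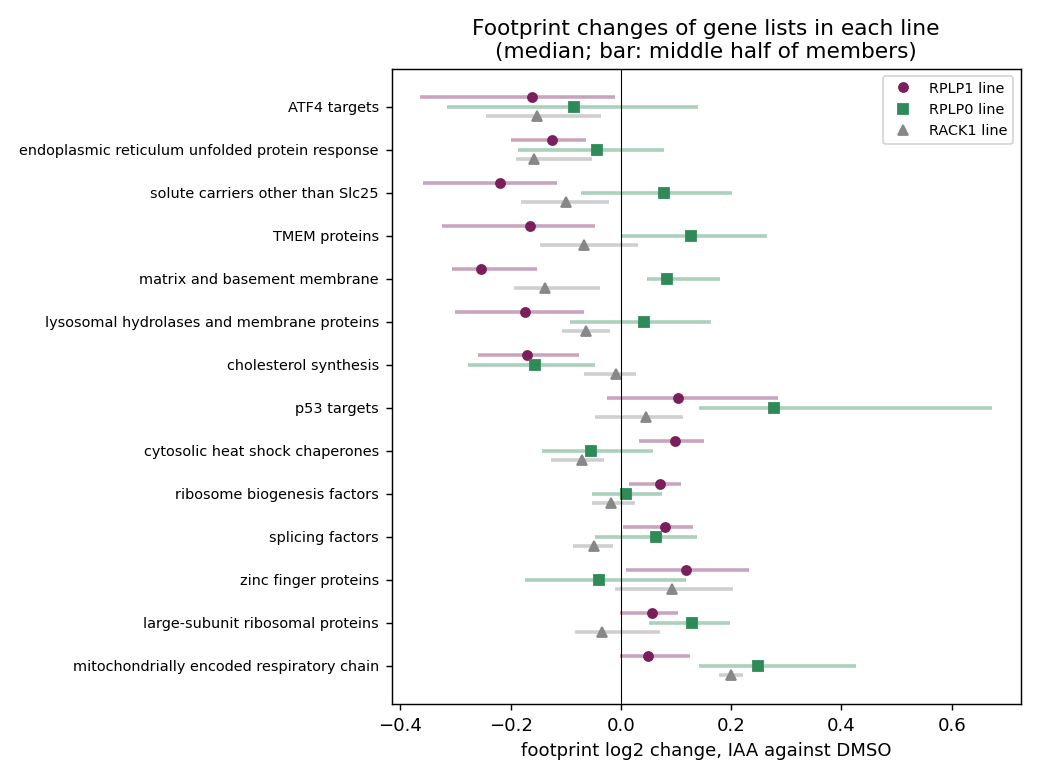
The median footprint log2 change (IAA against DMSO) of 14 gene lists is drawn for the RPLP1, RPLP0 and RACK1 lines, with bars over the middle 50% of members. Solute carrier, TMEM, matrix and lysosomal lists lie left of 0 in the RPLP1 line and right of 0 in the RPLP0 line, and p53 targets lie furthest right in the RPLP0 line.

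In the RACK1 line 3 genes were higher (0.0233%) and 1 lower (0.00776%) in footprints. Over 12117 shared genes, 10 were higher (0.0825%) and 3 lower (0.0248%) in the RPLP1 line than in the RACK1 line, and rho across genes was 0.234. With SEs from the t quantile 402 genes were higher and 538 lower, so that decreases outnumbered increases. Ccng1, a p53 target, differed by 0.52 (SE 0.124), with 0.39 (FDR 0.00258) in the RPLP1 line and -0.12 in the RACK1 line of the authors' deposited tables. Chordc1, an Hsp90 co-chaperone, differed by 0.38 (SE 0.091). With the normal quantile no solute carrier or matrix gene passed this test, and their median footprint changes in the RACK1 line were -0.10 and -0.14. A p that misses the threshold does not show that the lines respond alike.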

How the data were processed

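Each line's table, deposited by the authors, gives per the file headers a log2 fold change of footprints and of mRNA per gene, a false discovery rate (FDR, an adjusted p-value) for each, and a class code, which was not used for calls. Per the labels, the footprint library of a line combined all replicates of both treatments. The sources used here state no aligner, counting, test, scaling, low-count filter or genome build. No column of per-sample values was used, so depth is unknown.

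Calls are the authors' FDR below 0.05. The FDRs were turned back into p-values by undoing the Benjamini-Hochberg adjustment (FDR times rank over genes), and a change over its normal quantile gave the implied SE. Translation efficiency, and footprint differences between lines, were tested against the combined implied SEs with two-sided normal p-values, adjusted by Benjamini-Hochberg over all genes. This is approximate, since it assumes normal, independent errors. The script was tested on simulated data. The 45 gene lists, which overlap, and the members were chosen with earlier results of these data known, so lists are described by counts and medians and carry no test. Genes named are the 8 largest footprint changes and the 5 smallest FDRs in each direction, up to 8 efficiency changes in each direction that pass, up to 4 footprint calls of smallest FDR and 2 efficiency calls per list, and the stalk genes and Rack1. Others are marked where they appear, and some genes the rule names are not reported here. Precise values means an implied SE at or below the median in both assays.

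Promoters of 9644 genes came from RefSeq (GRCm38.p6), matched by symbol, with 2610 genes unmatched. Protein sequence features were planned and are not analysed here. Python 3.11.15, numpy 2.4.6, pandas 2.3.3, scipy 1.17.1 and matplotlib 3.10.9 were used.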

Additional observations from a re-analysis of the deposited data

Results flagged for a closer look

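Named genes whose footprint change differed between lines in the approximate test are given here as the change in the RPLP1 line minus that in the other line. Against the RPLP0 line the lower genes were Rnf225 (-2.97), Zfp750 (-1.01), Thy1 (-0.84), Slc28a1 (-0.76), Rplp0 (-0.74), Tmem161a (-0.71), Porcn (-0.70), Emc1 (-0.51), Slc7a5 (-0.50), Itga3 (-0.44), Itga5 (-0.38), Slc3a2 (-0.35) and Lamc1 (-0.30). Of these, Zfp750, on the list of 2-cell-like markers, rose in both lines and rose less in the RPLP1 line. The higher genes against the RPLP0 line were Pabpc1 (0.41), Zfp638 (0.44), Hsph1 (0.45), Zfp518a (0.48), the chromatin remodeller Chd7 (0.48) and Ibtk (0.80). Ibtk footprints fell in both lines and fell less in the RPLP1 line. Against the RACK1 line the higher genes were Chordc1 (0.38), Zfp518a (0.39), Ccng1 (0.52) and Zfp648 (3.25), and Zfp648 has no value in the RPLP0 table. The Zfp648 difference had an SE of 0.674, and Zfp648 is among the genes that share 1 identical mRNA change. These genes were drawn from the footprint calls of the RPLP1 line, so a difference in the direction of that call is partly fixed by the choice.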

How the results depend on the processing

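Footprint calls numbered 41 higher and 71 lower at an FDR below 0.01, and 809 higher and 1027 lower at an FDR below 0.1. Efficiency calls numbered 27 higher and 11 lower when errors of the assays were taken to correlate at 0.25, 263 and 209 at 0.5, and 10 and 1 at an adjusted p below 0.1. With SEs from the t quantile at 4 degrees of freedom, which are smaller by construction while the test stays normal, efficiency calls were 678 and 535, RPLP1 minus RPLP0 differences 1403 and 1585, and RPLP1 minus RACK1 differences 402 and 538. Centring on the median kept efficiency and difference counts within 1.5 times, and so did keeping date-converted and duplicated symbols, and leaving out runs of equal changes, for footprint and efficiency counts. Among members with precise values, footprint medians moved to -0.14 for solute carriers, -0.10 for TMEM proteins, -0.15 for integrins, -0.0862 for lysosomal genes, -0.15 for germ-layer genes, -0.0202 for the Wnt pathway, 0.0538 for immediate-early genes and 0.073 for nonsense-mediated decay factors, and the cause was not tested. Efficiency medians moved to 0.0162 for large-subunit proteins, -0.0589 for p53 targets, -0.0231 for integrins, 0.099 for lysosomal genes, 0.014 for immediate-early genes and 0.0738 for tubulins and actins. No footprint median changed sign under the alternatives run, and 4 of 40 efficiency medians did among precise members: large-subunit proteins, integrins, elongation factors (-0.00365) and mRNAs with upstream open reading frames (0.00943). No paired analysis was possible because the tables hold no value per sample, and for the same reason no replicate could be left out.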

Other observations

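The counts here stand beside 3.53% of all genes higher and 4.86% lower in footprints. Immediate-early genes and feedback inhibitors of ERK signalling, 31 in the table, had 2 members higher (6.45%) and none lower in footprints. Dusp6, a phosphatase of ERK, rose by 0.24 (FDR 0.0121) and Btg2, an antiproliferative gene that p53 also induces, by 0.37 (FDR 0.0151) in the authors' deposited table. On the glycolysis list 2 of 22 genes fell in footprints of the authors' deposited table. The aldolase Aldoc fell by 0.23 (FDR 0.0281). The lactate transporter Slc16a3, a solute carrier and not an enzyme, fell by 0.16 (FDR 0.0478). No proteasome subunit of 48 and none of 13 polyamine genes was called in footprints at the authors' FDR, while 5 proteasome subunits rose in mRNA and 1 fell. Of 7 CCT chaperonin subunits 2 rose, Tcp1 by 0.14 (FDR 0.0374) and Cct4 by 0.14 (FDR 0.0451), in footprints of the authors' deposited table. Of 79 nuclear-encoded respiratory chain genes, 1 rose and 1 fell in footprints, with a median efficiency change of -0.01.

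Footprint changes varied little with promoter composition. With the 9644 promoters split by GC content into 5 bins of 1841 to 2019 genes, median footprint changes ran from -0.02 to 0.01.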
